A study of Macaca fascicularis with 6 samples.

Results

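The transcripts of 31 cell cycle and proliferation genes were measured in left ventricular free wall of cynomolgus monkeys with chronic atrioventricular block and of intact animals. The genes were taken from a list of 32 names, in which CDC2 is the older symbol of CDK1. A probe set was assigned to one of them by the gene name of its design, or by the annotation's gene symbol where the design gave none. In this way 75 of the array's 52706 probe sets, control probe sets left out, were assigned to the 31 genes, out of 21505 genes named by the same rule. The brightest probe set stands for a gene, that is, the one with the highest mean log2 signal over the 6 arrays.

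RNA of 1 heart was hybridized to 1 Affymetrix Rhesus Macaque Genome Array for each of 6 adult male animals aged 4 to 6 years. The block group held animals #2 and #8, whose hearts were taken 8 months after ablation of the atrioventricular node, and the intact group held the non-operated animals #11, #12, #13 and #14. Both block animals had also been challenged repeatedly with the repolarization-delaying β-blocker dl-sotalol by mouth, and had received moxifloxacin. They were chosen for the array because they had developed torsade de pointes repeatedly, so block, drugs and arrhythmia cannot be told apart, and they stand for the most arrhythmic animals of the model rather than for all of them.

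A dividing cell passes from G1 through DNA synthesis (S phase) to G2 and mitosis, and each step is driven by cyclins that bind and switch on cyclin-dependent kinases. The D-type cyclins act with CDK4 and CDK6 and the E-type cyclins with CDK2 at entry into S phase, A- and B-type cyclins act with CDK1 at entry into mitosis, and inhibitors such as p21, p27 and p57 hold the kinases back. Adult ventricular myocytes have largely left this cycle, while fibroblasts, endothelial cells, smooth muscle cells and leukocytes of the heart can still divide. A transmural specimen mixes all of these, and in such tissue a change in the number of cells of one type cannot be told apart from a change in RNA per cell.

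Of the 31 genes, 27 were called Present by the MAS5 algorithm on at least 2 of the 6 arrays and were tested, and 19 were Present on all 6. The other 4 were MCM6, MKI67, PLK1 and CDC20, of which MKI67 was Present on 1 array and the other 3 on 0. By animal, 24 and 27 of the 31 genes were Present in block animals #2 and #8, against 23, 25, 25 and 20 in intact animals #11, #12, #13 and #14. Of the 27 tested genes, 1 (CDK1) reached the limit of 2 Present calls through the block hearts alone and 0 through the intact hearts alone. The plot of all signals by heart sets the groups side by side within each gene, while levels of different probe sets cannot be compared with each other.

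**Figure D1:**
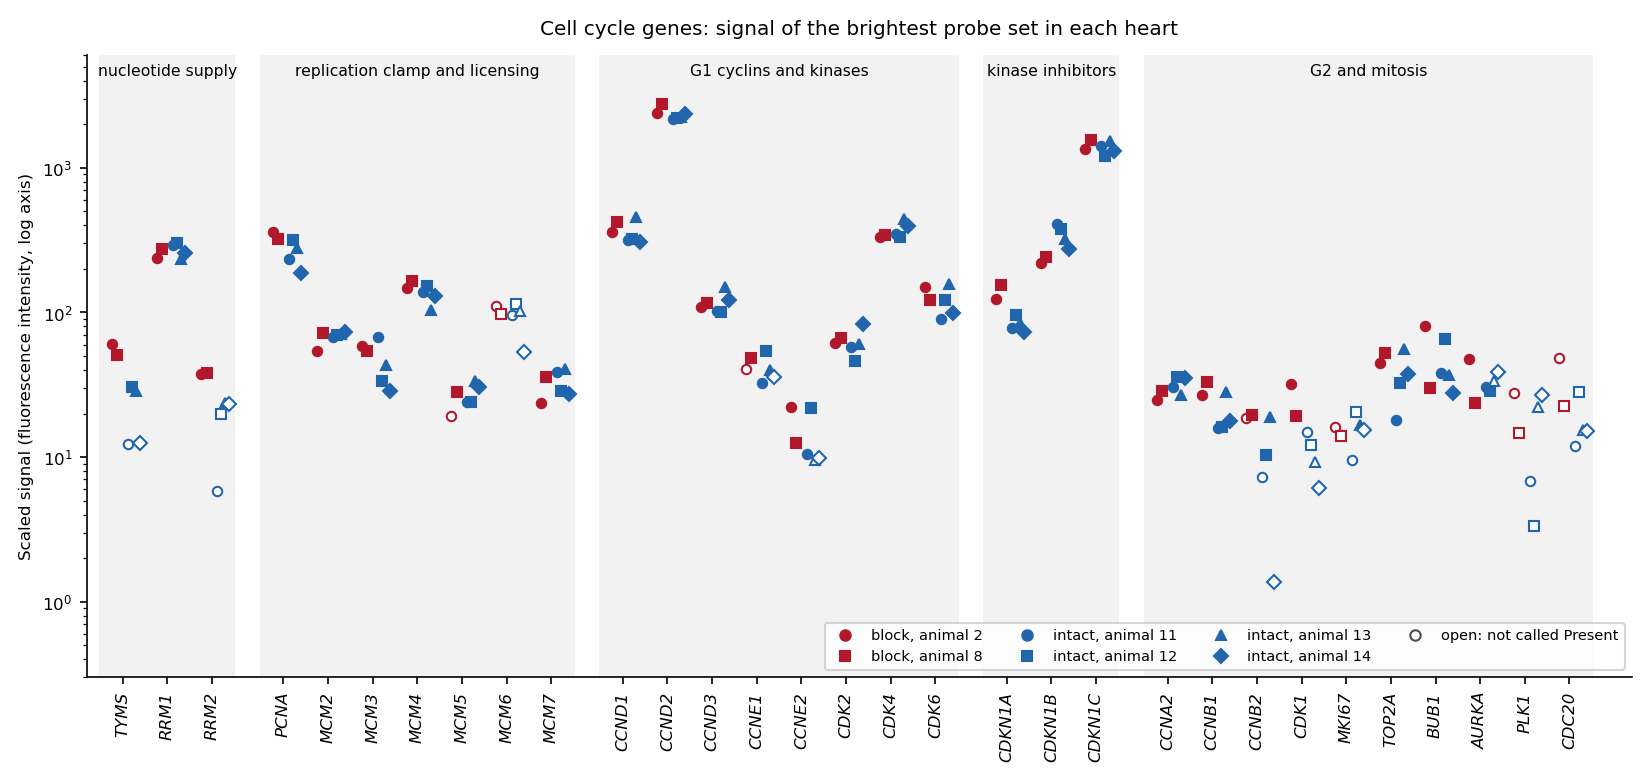
Scaled signal (fluorescence intensity, log axis) of the brightest probe set of each of the 31 genes, with the 2 block hearts (red) left of the 4 intact hearts (blue) and open symbols where the signal was not called Present. Both block hearts lie above all intact hearts for TYMS, RRM2, PCNA, CCND2, CDKN1A and CDK1 (narrowly for PCNA and CCND2), below them for CDKN1B, and overlap with them elsewhere among the tested genes.

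With limma (2-sided, Benjamini-Hochberg adjustment over 22577 probe sets), 0 of the 27 tested genes passed an adjusted p of 0.05 in either direction, and the lowest adjusted p among them was 0.423. Over all probe sets tested, 0.00443% passed as higher with block and 0.0177% as lower. At an unadjusted p under 0.05, 3 genes were higher (TYMS, CDK1 and CDKN1A) and 1 was lower (CDKN1B), which is 11.1% and 3.70% of the 27 against 3.62% and 4.62% of all probe sets tested. Both block hearts lay above all 4 intact hearts for 6 genes (22.2% of the 27, against 8.61% of all probe sets tested) and below all of them for 1 gene (3.70%, against 9.48%). A fold of 1.5 or more was seen for 6 genes (TYMS, RRM2, CDKN1A, CCNB1, CCNB2 and CDK1; 8.00% of all probe sets tested) and a fold of 0.67 or less for 0 (8.23%). The log2 fold change, block over intact, was above 0 for 19 of the 27 (70.4%, against 49.6%), with a median of 0.19 beside -0.00 over all probe sets tested. Since genes that pass a filter on detection through the hearts in which they are high had to differ, these shares describe the 27 and are not a test of them. Among the 19 genes Present on all arrays the median was 0.17, 12 were above 0, and both block hearts lay above every intact heart for 3 and below for 1.

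**Figure D2:**
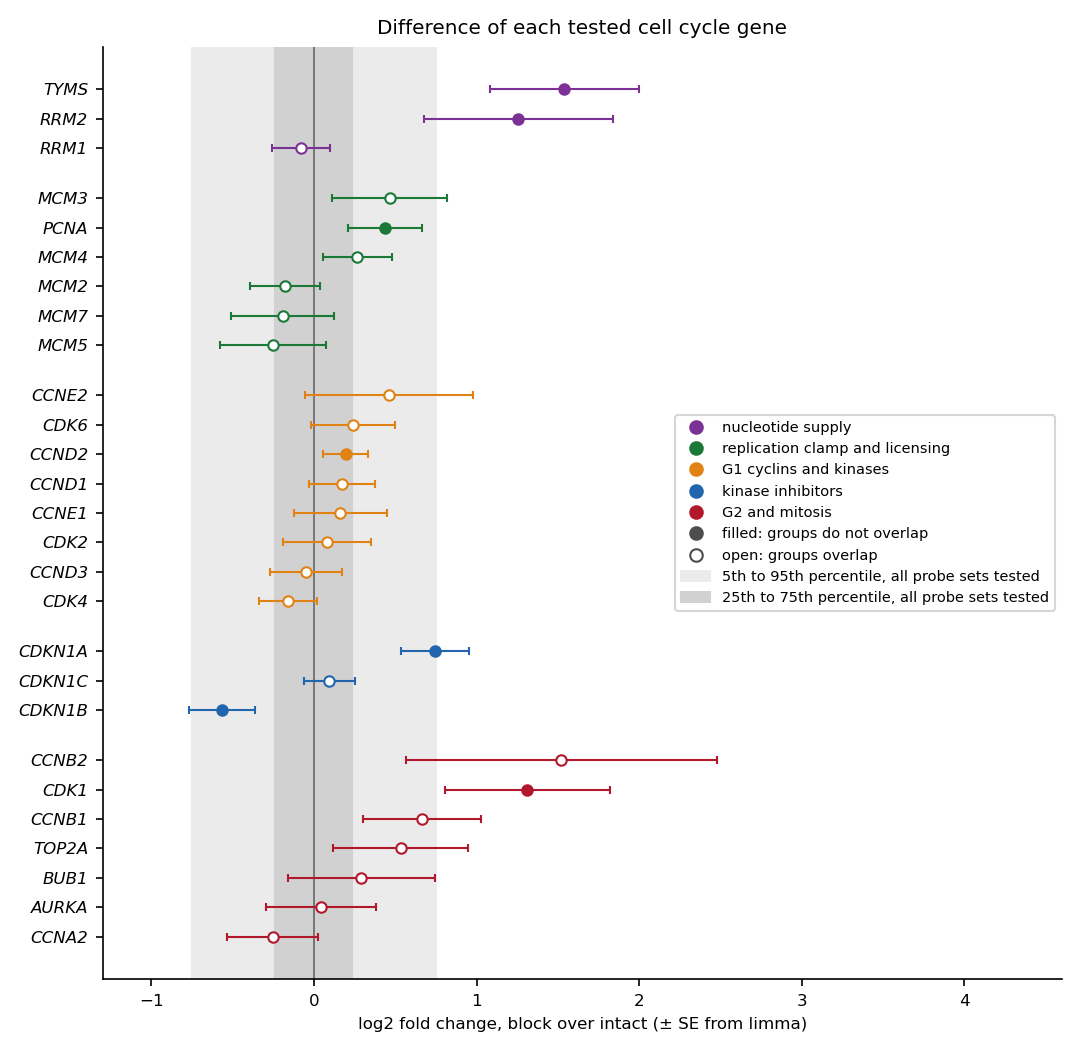
log2 fold change, block over intact, with its SE from limma, of the 27 tested genes in 5 roles. Filled points mark genes whose groups do not overlap, and the grey bands hold the central probe sets of all 22577 tested (5th to 95th percentile from -0.75 to 0.75, 25th to 75th from -0.24 to 0.23). TYMS, RRM2, CCNB2 and CDK1 lie above the wider band and 0 of the 27 genes lie below it.

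The 3 genes of nucleotide supply make the building blocks of DNA. TYMS, thymidylate synthase, which makes the thymidine nucleotide, had a signal of 60.7 and 51.2 in block animals #2 and #8, against 12.4, 30.6, 28.5 and 12.5 in intact animals #11, #12, #13 and #14. Both block hearts were above every intact heart, and the transcript was Present in both block hearts but in only 2 of the 4 intact ones. The fold between the means of log2 signals was 2.91 (log2 fold change 1.54 ± 0.46, SE), with an adjusted p of 0.448. The probe set lies on chromosome 18 at 13430987 to 13431427, minus strand, in the rhesus build Mmul_051212 that the array's annotation uses, as do all positions given here.

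RRM2, the small subunit of ribonucleotide reductase, which is made in S phase and turns ribonucleotides into deoxyribonucleotides, gave 37.8 and 38.3 in the block hearts, against 5.82, 20.0, 23.7 and 23.2 in the intact hearts in the same order of animals. The groups did not overlap, and 1 of the 4 intact arrays was called Present. The log2 fold change was 1.26 ± 0.58 (SE, adjusted p = 0.620), on chromosome 13 at 10216829 to 10217539. A second tested probe set (10218176 to 10218740) stood at a log2 fold change of 1.07 ± 0.44 (SE), again with both block hearts (25.7 and 29.3) above the intact ones (9.37, 17.1, 18.7 and 9.69). RRM1, the large subunit, which is present throughout the cycle, averaged 256 ± 24.2 in block hearts (SD, n = 2) and 272 ± 30.5 in intact hearts (SD, n = 4), and the groups overlapped. The enzyme's subunits thus stood at log2 fold changes of 1.26 and -0.08, a difference between the 2 genes that was not itself tested.

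Among the 7 genes of the replication clamp and of licensing, PCNA, the ring that holds DNA polymerase on its template, had signals of 357 and 320 in block hearts, against 235, 315, 279 and 187 in intact hearts. Both block hearts were highest, by a margin of only 320 against 315 between animals #8 and #12. The log2 fold change was 0.44 ± 0.23 (SE, adjusted p = 0.658). Its probe set lies on chromosome 10 at 38452923 to 38455423, while a second one, named PCNA by the annotation's symbol alone and placed on chromosome X, was Absent on all arrays.

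The MCM2 to MCM7 proteins form the ring that is loaded on replication origins and unwinds DNA. The 5 of them that were tested had log2 fold changes of -0.18 (MCM2), 0.47 (MCM3), 0.27 (MCM4), -0.25 (MCM5) and -0.19 (MCM7), each with overlapping groups. MCM3 had the largest of them, at 59.0 and 54.4 in block hearts against 67.9, 33.6, 43.5 and 28.6 in intact hearts, so that intact animal #11 was above both block hearts. The subunits of one ring thus stood on both sides of 0, and none lay outside the central 90% of all probe sets tested, which spans -0.75 to 0.75. MCM6 was brightest in a probe set whose annotation symbol is CAPZA2, with signals of 53.1 to 114 that were not called Present on any array, so its level is not known here. The annotation symbol of the tested MCM7 probe set is IGKC, an immunoglobulin gene, and which of the 2 transcripts it measures was not tested.

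The D-type cyclins are the first to respond when a resting cell is stimulated to divide. CCND2 was Present on all arrays, with 2404 and 2746 in block hearts against 2174, 2210, 2251 and 2351 in intact hearts. Both block hearts were above every intact one, but the log2 fold change was only 0.19 ± 0.14 (SE, adjusted p = 0.752). The 3 further probe sets tested for CCND2 had log2 fold changes of -0.21, -0.02 and -0.10, with overlapping groups.

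CCND1 gave 360 and 422 in block hearts and 319, 323, 454 and 308 in intact hearts, where animal #13 was the highest of all 6 (log2 fold change 0.17 ± 0.20, SE, adjusted p = 0.858). A second probe set, 289 and 350 in block hearts against 214, 218, 216 and 137 in intact hearts, had groups that did not overlap. Its log2 fold change was 0.72 ± 0.23 (SE, adjusted p = 0.477). Both lie on chromosome 14, at 5118603 to 5126018 and at 5115662 to 5116271, on the minus strand. The CCND1 fold was thus 1.13 by the brightest probe set and 1.65 by the second.

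CCND3, the third D-type cyclin, was measured by 1 probe set and gave 110 and 116 in block hearts, against 102, 101, 150 and 121 in intact hearts (log2 fold change -0.05 ± 0.22, SE). Of the E-type cyclins, CCNE1 was Present in 1 of the 2 block and 3 of the 4 intact hearts. CCNE2 was Present in both block hearts and in 2 of the 4 intact ones. CCNE1 had 40.7 and 48.6 in block hearts against 32.7, 54.4, 39.7 and 35.6 in intact hearts, and CCNE2 had 22.3 and 12.5 against 10.4, 21.8, 9.61 and 9.85. In both, the highest intact animal was #12, which lay above 1 of the 2 block hearts for CCNE2 and above both for CCNE1. The kinases that these cyclins bind had log2 fold changes of 0.08 (CDK2), -0.16 (CDK4) and 0.24 (CDK6), all with overlapping groups. CDK6 was covered by 5 tested probe sets, and all 5 had a log2 fold change above 0, from 0.24 to 0.50.

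The kinase inhibitors of the CDKN1 family include the gene with the lowest p-value of the 27 tested and the only one of them whose block hearts were both lower. CDKN1A, which encodes p21, an inhibitor that is switched on by p53 and other stress signals, had 123 and 154 in block hearts against 77.6, 96.1, 84.1 and 73.5 in intact hearts. The groups did not overlap and all 6 arrays were Present. The fold was 1.67 (log2 fold change 0.74 ± 0.21, SE), and the adjusted p was 0.423. It was measured by a single probe set on chromosome 4 at 36447295 to 36447769.

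CDKN1B, which encodes p27, the inhibitor that accumulates in resting cells, had the opposite order, with 220 and 241 in block hearts against 408, 375, 320 and 275 in intact hearts. The block hearts were both below the lowest intact heart, animal #14, at a fold of 0.675 (log2 fold change -0.57 ± 0.20, SE, adjusted p = 0.511). This was also a single probe set, on chromosome 11 at 13074965 to 13075530, Present on all arrays. CDKN1C, which encodes p57, averaged 1454 ± 134 in block hearts (SD, n = 2) and 1365 ± 139 in intact hearts (SD, n = 4), with overlapping groups (log2 fold change 0.09 ± 0.16, SE). By animal it read 1359 and 1548 in block hearts, against 1406, 1208, 1534 and 1312 in intact hearts, and its second probe set had a log2 fold change of 0.25.

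Of the 10 genes of G2 and mitosis, 7 were tested, and 6 of these had a log2 fold change above 0, with a median of 0.53. Signals of the 10 were close to background, at most 80.2, and 3 of the 10 were not tested for want of Present calls. CDK1, the kinase that starts mitosis, gave 32.2 and 19.4 in block hearts against 15, 12.2, 9.18 and 6.10 in intact hearts. It was Present in both block hearts and in none of the 4 intact ones, so the level in intact hearts is not known. The measured signals differed by a fold of 2.48 (log2 fold change 1.31 ± 0.51, SE, adjusted p = 0.556), which rests on intact signals not called Present, and the log2 fold change was 0.95 without block animal #2. The position is chromosome 9, 76486205 to 76486747, minus strand. The 2 other CDK1 probe sets were Present in 3 and 2 of the 4 intact hearts. Each was Present in only 1 of the 2 block hearts. Their log2 fold changes were 0.85 ± 0.51 (SE, a fold of 1.80) and 1.97 ± 1.04 (SE). In both the block hearts lay above every intact heart. Among the Absent signals behind the value of 1.97 was that of intact animal #11, the lowest of the 6 hearts.

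The B-type cyclins are the partners of CDK1. CCNB1 had 27.0 and 32.9 in block hearts against 15.9, 16.1, 28.0 and 17.7 in intact hearts, where animal #13 was above block animal #2 (fold 1.58, adjusted p = 0.668). CCNB2 had 18.5 and 19.6 against 7.25, 10.4, 18.8 and 1.37, where animal #13 again reached the block hearts. Its log2 fold change of 1.52 ± 0.96 (SE, adjusted p = 0.712) leans on animal #14, whose signal of 1.37 was Absent, and it was 0.76 without that animal. CCNA2, the A-type cyclin of S phase and G2, was on the other side of 0, at a log2 fold change of -0.26 ± 0.28 (SE), with 24.8 and 28.5 in block hearts and 26.7 to 35.5 in intact hearts.

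TOP2A, the topoisomerase that untangles chromosomes before they part, and MKI67, which encodes the Ki-67 antigen of cycling cells, are usual markers of proliferation. TOP2A gave 44.6 and 52.2 in block hearts and 18.1, 32.7, 55.5 and 37.6 in intact hearts, with animal #13 above both block hearts (log2 fold change 0.53 ± 0.42, SE, adjusted p = 0.771). Its 2 tested probe sets are placed on chromosomes 13 (the brighter) and 16, and the second had a log2 fold change of 0.41. MKI67 was represented by 4 probe sets, and the brightest gave 16.1 and 14.1 in block hearts against 9.48, 20.4, 16.7 and 15.4 in intact hearts, with 1 Present call, in intact animal #13. The other 3 were Absent throughout. At the sensitivity of this array MKI67 was thus detected in only 1 of the 4 intact hearts and in neither block heart.

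In the brightest probe set of each remaining mitotic gene the groups overlapped. BUB1, a kinase of the spindle checkpoint, spread over 30.1 to 80.2 in block hearts and 27.8 to 66.0 in intact hearts, and its 4 tested probe sets stood on both sides of 0, from -0.12 to 1.10. AURKA, the Aurora A kinase of the spindle poles, had a log2 fold change of 0.04. CDC20, the activator of the anaphase-promoting complex, was Absent on all arrays, with 48.6 and 22.6 in block hearts and 11.8, 28.3, 15.4 and 15.1 in intact hearts. PLK1, the polo-like kinase, was Absent on all arrays too, and its 2 probe sets are placed on different chromosomes (8 and 13). The brighter gave 27.9 and 14.7 in block hearts against 3.34 to 27.0 in intact hearts. The other gave 8.13 and 5.36 against 9.07 to 35.9. Since all these signals were Absent, the levels of CDC20 and PLK1 are not known here.

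Several probe sets named for one gene are not replicates, and whether they read the same RNA was not tested. The 2 tested probe sets of TOP2A are placed on different chromosomes, and the 2 of TYMS on opposite strands. Among the 31 genes, 11 had 2 or more tested probe sets. For 8 of these all probe sets had a log2 fold change above 0 (TYMS, RRM2, MCM4, CCND1, CDK6, CDKN1C, CDK1 and TOP2A), for 1 (RRM1) all were below 0, and for 2 (CCND2 and BUB1) they were split. Over all 47 tested probe sets of the 31 genes, 0 passed the adjusted threshold in either direction, 12 had both block hearts above every intact heart (25.5%, against 8.61% of all probe sets tested) and 1 had both below (2.13%, against 9.48%).

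**Figure D3:**
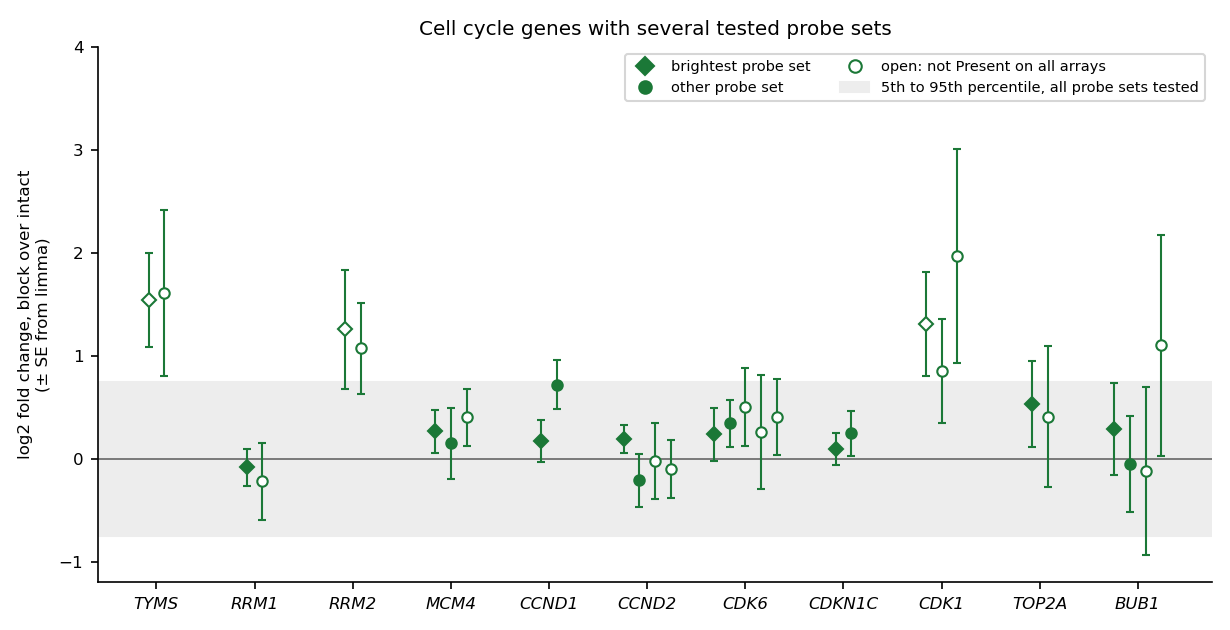
log2 fold change, block over intact, with its SE from limma, of every tested probe set of the 11 genes that have 2 or more, with diamonds for the brightest probe set and open symbols where it was not Present on all 6 arrays. The grey band holds the 5th to 95th percentile of all probe sets tested. All probe sets of TYMS, RRM2 and CDK1 lie above the band, between 0.85 and 1.97, while those of CCND2 and BUB1 straddle 0.

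The 2 block animals were not alike gene by gene. Animal #8 was the higher of the pair for 19 of the 27 tested genes and animal #2 for 8. The median deviation of the 27 genes from the intact mean (log2) was 0.19 in both block animals. It was -0.08, 0.09, 0.08 and -0.09 in intact animals #11, #12, #13 and #14. Both block animals lay above these intact values. That mean contains each intact animal and no block animal, so intact deviations are drawn towards 0 and the groups are not on equal terms. Over all probe sets tested the same median deviation was between 0.00 and 0.02 on every array. Intact animal #13 had the highest signal of all 6 hearts for 7 genes, as often as block animal #8, while animals #11 and #14 each had the lowest for 7.

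Of the genes that work with these 31, lists of DNA replication, mitosis and control of the step from G1 to S phase were drawn from textbook knowledge of the cell cycle. Of the 38 genes of DNA replication, 15 were tested and 0 passed the adjusted threshold, nor did any have an unadjusted p under 0.05. Their log2 fold changes were above 0 for 8 and below for 7, with a median of 0.01 against -0.00 over all probe sets tested. Both block hearts lay above every intact heart for 2 of the 15 and below for 0 (8.61% and 9.48% of all probe sets tested). With older symbols counted, 23 were tested, 1 (CDC45) was higher and 0 lower at an unadjusted p under 0.05, and the median was -0.05, with 11 above 0 and 12 below. The 4 with the lowest p were RFC3 (0.66) and RPA2 (0.39), a subunit of the clamp loader and one of the single-strand binding protein, whose block hearts were above every intact one, and CDC7 (-0.45), the kinase that fires origins, and FEN1 (0.36), the flap endonuclease, whose groups overlapped.

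Of the 40 genes of mitosis, 30 were found on the array, and 11 of these were Present on no array, so the values leave them out. In all 17 were tested and 0 passed the adjusted threshold. At an unadjusted p under 0.05, 4 were higher with block and 0 lower (3.62% and 4.62% of all probe sets tested), 13 of the 17 had a log2 fold change above 0 (49.6% of all), and the median was 0.76 against -0.00. With older symbols counted, 22 were tested, 5 were higher and 0 lower, and the median was 0.66. These 4 were CENPF, a kinetochore protein, MAD2L1, of the spindle checkpoint, CKS2, a subunit that binds CDK1, and CDCA8, of the chromosomal passenger complex. CENPF gave 34.4 and 38.4 in block hearts against 15.4, 16.4, 23.6 and 21.4 in intact hearts (log2 fold change 0.94 ± 0.33, SE, adjusted p = 0.506). MAD2L1 gave 76.8 and 111 against 50.8, 59.7, 69.5 and 42.0 (0.76 ± 0.28, SE, adjusted p = 0.514), and CKS2 gave 127 and 135 against 44.8, 99.5, 97.0 and 53.5 (0.92 ± 0.35, SE, adjusted p = 0.547). In all 3, named for their low p, both block hearts were above every intact heart. Over the 17 tested this held for 5, and 0 had both below (8.61% and 9.48% of all probe sets tested). For CENPF, MAD2L1 and CKS2 every array was Present. CENPF was dim all the same, as the 95th percentile of Absent signals was 32.9 to 44.8 by array. CDCA8, at 32 and 31.9 against 17.1, 13.0, 22.5 and 20.3, was Present in only 1 block and 1 intact heart. The list spanned log2 fold changes of -1.47 (INCENP) to 2.65 (ANLN), neither Present on all arrays, and 5 of the 8 that were Present on all arrays were above 0.

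Of the 47 genes that govern the step from G1 to S phase, 36 were tested, 0 passed the adjusted threshold, and 3 were higher and 0 lower at an unadjusted p under 0.05 (3.62% and 4.62% of all probe sets tested). Their median was 0.14 against -0.00 over all, with 21 above 0 (49.6% of all) and 15 below. GADD45G, a stress-induced growth arrest gene, had the lowest p, with 169 and 147 in block hearts against 40.4, 39.9, 63.3 and 109 in intact hearts (log2 fold change 1.45 ± 0.40, SE, adjusted p = 0.416). CCNG2, an unusual cyclin of resting cells, gave 457 and 512 against 393, 336, 343 and 226 (0.60 ± 0.23, SE, adjusted p = 0.546), and CDKN3, a phosphatase that acts on CDK2, gave 242 and 146 against 127, 138, 140 and 102 (0.58 ± 0.25, SE, adjusted p = 0.593). Both block hearts were above every intact heart in all 3, which were named for their low p. Over the 36 tested this held for 7, and 2 had both below (8.61% and 9.48% of all probe sets tested). The fourth, E2F5, a repressor of the E2F family, had both block hearts (29.1 and 22.6) below every intact heart (40.1, 35.1, 36.8 and 33.9), at a log2 fold change of -0.50 (adjusted p = 0.660).

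**Figure D4:**
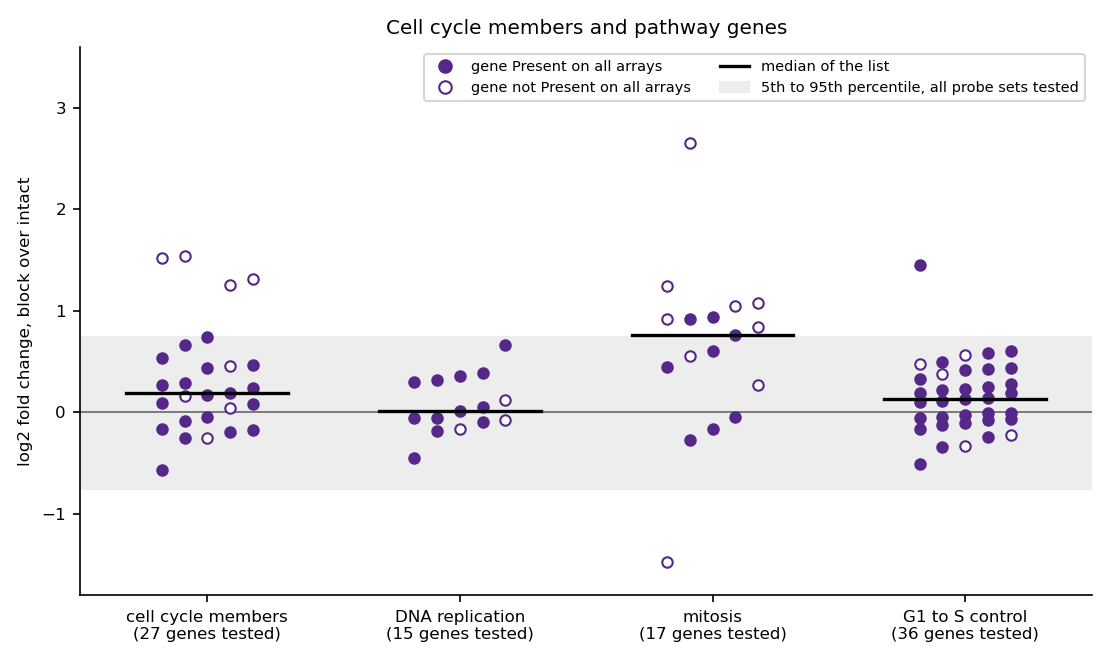
log2 fold change, block over intact, of the 27 tested cell cycle members and of the tested genes of 3 pathway lists, 1 point for each gene, open where it was not Present on all 6 arrays, with a bar at the median of the list and a grey band for the 5th to 95th percentile of all probe sets tested. The medians are 0.19 for the members, 0.01 for DNA replication, 0.76 for mitosis and 0.14 for G1 to S control.

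Of the other measures of these arrays, some differed between the groups and others overlapped. The signals were scaled to a common 2% trimmed mean, which was 54.6 and 73.5 in the deposited signals of the block hearts and 75.1 to 88.2 in those of the intact hearts, and 36.0% to 39.7% of probe sets were Present on an array. The 3' over 5' ratio of GAPDH, a measure of how short the RNA copies are, was 5.05 and 3.05 in block hearts against 2.17 to 2.65 in intact hearts (exact permutation test, 2-sided p = 0.0667, the smallest the 15 splits allow). The same ratio of ACTB overlapped between the groups, at 11.6 and 8.98 in block hearts against 7.85 to 10.9 in intact hearts (exact permutation test, 2-sided p = 0.333). All 9 cardiomyocyte markers measured were Present, and their summed signal was 82374 and 66177 in block hearts against 59993 to 67327 in intact hearts. Of the 9, 8 had a log2 fold change above 0 (49.6% of all probe sets tested). For TTN and RYR2 both block hearts were above every intact heart (8.61% of all probe sets tested). Of the 7 macrophage markers tested, all had a log2 fold change above 0 (median 0.60), as did 49.6% of all probe sets tested. For 1 of the 7, CD163, both block hearts were above every intact heart (98.5 and 172 against 45.6 to 82.7), and for 0 below. But the summed signal of the 8 on the array was 659 and 1258 in block hearts against 507 to 714 in intact hearts. Only animal #8 was thus outside the intact range of the sum. Lymphocyte markers summed to 546 and 747 against 510 to 686, with CD3E, MS4A1, CD79A and NKG7 Present on no array. Smooth muscle and pericyte markers summed to 5626 and 6313 against 4499 to 5905. Of the 6 tested, 4 had a log2 fold change above 0 (49.6% of all probe sets tested) and 2 below. At an unadjusted p under 0.05, 3 (ACTA2, TAGLN and CSPG4) were higher and 0 lower (3.62% and 4.62% of all probe sets tested). These 3 had both block hearts above every intact heart (8.61% of all probe sets tested). MYH11 gave 204 and 157 in block hearts against 145 to 338 in intact hearts, and PDGFRB 188 and 238 against 134 to 328. ACTA2 gave 957 and 974 in block hearts against 594 to 880 in intact hearts. Fibroblast markers summed to 13835 and 19607 against 11707 to 21479, and endothelial markers to 3003 and 3687 against 2973 to 3625. Blood markers summed to 22356 and 15965 against 5786 to 16112. Of the 8 blood markers tested, 1 (HBB) had both block hearts above every intact heart (19924 and 14460 against 5412 to 14371), and 0 had both below. The part of RNA quality, or of cells other than cardiomyocytes, in the cell cycle values was not tested.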

How the data were processed

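Left ventricular RNA of 2 block and 4 intact cynomolgus monkeys was hybridized to 1 array per animal (100 ng of RNA from 50 mg or more of tissue, amplified from the 3' end). The authors extracted signals with the MAS5 algorithm (version not given in the sources used here). The deposited values for a probe set on an array are its signal (a linear intensity, at least 1), a detection call, a detection p-value and a normalized log2 value. The authors' normalized log2 value was the log2 signal minus the median of the array and the median of the probe set over the 4 intact arrays, as a rebuild from the signals showed. Another 6 deposited columns, which count probe pairs, were left aside.

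Arrays were scaled to the same 2% trimmed mean before log2 transformation. Control probe sets (158) were left out, and probe sets Present on at least 2 of 6 arrays were tested with limma 3.58.1 in R 4.3.3 (lmFit, eBayes with a variance trend, 2-sided), called at an adjusted p under 0.05. Python 3.11.15 with pandas 2.3.3 read the tables, and plots were drawn with matplotlib 3.10.9. The fit was tested on simulated data. The number of arrays, and signal over background, limit the precision. The labels call the arrays separate animals, so p-values measure the spread between animals.

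The members and lists were chosen with earlier results of these data known. The text gives in full each tested member with an unadjusted p under 0.05, groups that do not overlap or a fold of at least 1.5 or at most 0.67. It adds the kinase inhibitors, G1 cyclins, MKI67, TOP2A, PCNA and CCNB1, and the 4 genes of lowest p in each pathway list. Other genes are given by range, the result of 1 marker gene is not reported here, and the ends of the mitosis list were named after values were seen. Alternatives were other scalings (quantile, 75th percentile, the authors' columns), an offset of 32, no detection filter, a filter of Present calls on every array, eBayes without trend, averaging a gene's tested probe sets, annotation symbols, older symbols and leaving out each animal.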

Additional observations from a re-analysis of the deposited data

Results flagged for a closer look

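In 3 of the 16 genes given in full whose intact hearts were examined for a single distant sample, 1 intact heart stood apart from the other 3, measured as its gap to the nearest of them divided by the range of the 4, against Dixon's critical value for 4 samples. Chance gives such a result in about 1 in 20 groups. For CCND1 it was animal #13, the highest, with a gap of 0.897 of the range (454, beside 308 to 323). For CCNE2 it was animal #12, the highest, with 0.932 (21.8, beside 9.61 to 10.4). For CCNB1 it was animal #13, the highest, with 0.851 (28.0, beside 15.9 to 17.7). The log2 fold changes without that animal were 0.30 for CCND1, 0.74 for CCNE2 and 0.85 for CCNB1, against 0.17, 0.46 and 0.66 with it. They were 0.06 for CCND1 without block animal #8 and 0.04 for CCNE2 without block animal #2.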

How the results depend on the processing

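No paired analysis was possible because the block and intact animals share no replicate number. Under 16 alternatives 0 members and 0 genes of the pathway lists passed the adjusted threshold. Of 408 values followed for 27 named genes, 405 kept their direction and side of the threshold, and 3 changed sign near 0: CCND2 to -0.034 when the probe sets of a gene were averaged, CDKN1C to -0.00093 without animal #8 (range without single animals up to 0.19), and CCND3 to 0.069 without animal #13 (range from -0.12). The size of the log2 fold change shrank by over 1.5 times for 15 of the 27 without at least 1 animal, among them RRM2 (0.77 without #11), CCNB2 (0.76 without #14), TOP2A (0.24 without #11), RFC3 (0.31 without #8), MAD2L1 (0.49 without #8), and FEN1 (0.05) and CDKN3 (0.22) without #2. With an offset of 32 it did so for 14, among them TYMS (0.75), RRM2 (0.50), CDK1 (0.43), CCNB2 (0.32) and CENPF (0.42).

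The probe sets called over the whole array numbered 5, but 0 with quantile normalization, the authors' normalized columns or eBayes without trend, 8 with an offset of 32, and 0 to 4 when each animal was left out in turn (0 without #2, #11, #12 or #13, 2 without #14, 4 without #8). Members higher at an unadjusted p under 0.05 numbered 3, but 1 among probe sets Present on all arrays, 5 when probe sets were averaged, and 1 to 5 without single animals (1 without #2, 5 without #11). Those lower numbered 1, but 0 with the authors' columns and 0 to 1 without single animals (0 without #2). Members with both block hearts above every intact heart numbered 6, but 3 among those Present on all arrays and 3 with annotation symbols, by which fewer genes (15) were tested, and 7 to 10 without single animals (10 without #2 or #13). Those below numbered 1, and 1 to 5 without single animals (5 without #8), counts that grow by construction with fewer hearts. The median of members was 0.13 to 0.27 without single animals. The remaining causes were not tested. Signals near background limit CDK1, CCNB2, CCNE2, RRM2, CCNB1, TYMS and CENPF among others, and MKI67, PLK1, CDC20 and MCM6 could not be tested.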
